A study of Mus musculus with 6 samples.

Results

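Heat shock proteins, J-domain (DNAJ) proteins and the chaperonin rings are protein-folding machines, most of them of the cytosol, nucleus and mitochondria. They were followed here as 70 genes, out of 14408 listed in the expression table, chosen by gene symbol alone. Taken was every symbol beginning with Hspa, Hspb, Hsp90, Hspd, Hspe, Hsph, Dnaja, Dnajb, Dnajc or Cct2 to Cct8. The endoplasmic reticulum genes Hspa5, Hsp90b1 and Dnajb9 were left out, while others of that compartment, such as Dnajc10, were kept. By family these were 10 HSP70 genes, 3 HSP110 genes, 2 HSP90 genes, the chaperonin pair Hspd1 and Hspe1, 5 small heat shock proteins, 4 DNAJA, 8 DNAJB and 26 DNAJC genes, 8 CCT genes, and Hspbp1 and Hspbap1, which share the letters but not the family.

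All 6 libraries were labelled as heart tissue, left ventricle, of male C57BL/6J mice in a model of HFpEF, heart failure in which ejection fraction is preserved. The stated age of 8 weeks comes before the diet and treatment periods, and the age at tissue collection is not stated. The model combined a high-fat diet with L-NAME, which blocks nitric oxide synthases, at 0.5 g/L in the drinking water for 8 to 12 weeks, and both groups carried it. Mice then had PBS (3 libraries) or intraperitoneal L-proline at 300 mg/kg per day (3 libraries) for 4 to 8 weeks. The stated interest was how L-proline acts on ferroptosis, an iron-dependent form of cell death, and on the nuclear receptor PPARγ. Separate animals are not stated in the labels, so the p-values reflect only how far these 6 libraries scatter, and that scatter may be technical.

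HSP70 proteins bind exposed stretches of unfolded chains and release them in a cycle driven by ATP, J-domain proteins bring the client and start the hydrolysis, and HSP110 proteins reset the cycle. HSP90 finishes the folding of kinases and hormone receptors, small heat shock proteins hold clients in solution, and the ring-shaped chaperonins, CCT in the cytosol and HSP60 with its HSP10 lid in mitochondria, enclose a chain while it folds. Many of the cytosolic genes are controlled by the transcription factor HSF1 and are known for their induction by heat and oxidative stress, in the heart as elsewhere.

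The libraries held 34990473 to 37498030 fragments, recovered from the deposited FPKM values (fragments corrected for the length of the gene and the size of the library). Heart muscle markers were nearly absent: of 13 cardiomyocyte genes 6 were listed, and Myh7, Tnni3, Ttn, Ryr2 and Myl2 did not exceed 0.212 FPKM in any library. The labels do not settle which cells the RNA came from, so each value below is that of a library labelled left ventricle. The summed cardiomyocyte markers, nearly all of it Tnnt2, lay at 31.6 to 33.0 FPKM in PBS and 13.8 to 16.4 in L-proline. The 7 listed of 10 fibroblast markers summed to 3367 to 3466 FPKM in PBS and 4069 to 4475 in L-proline, with 3 members higher and 1 lower (limma, adjusted p under 0.05). All 6 listed of 8 endothelial markers had means under 1 FPKM. The 4 listed of 8 macrophage markers summed to 4.59 to 5.60 FPKM in PBS and 6.53 to 7.72 in L-proline, with 1 member higher. Of 7 T and NK cell markers 2 were listed: Ccl5, at 31.4 to 32.1 FPKM in PBS and 69.0 to 96.1 in L-proline, and Cd8a, with at most 8 fragments in any library. The 8 listed of 9 pericyte and smooth muscle markers summed to 1207 to 1339 FPKM in PBS and 1102 to 1318 in L-proline, where Notch3 rose (adjusted p = 0.0331) and Tagln was 84.0 ± 7.75 and 64.3 ± 10.2 FPKM (0.0569). The part of these differences in the results on chaperones was not tested, and in such bulk RNA fewer cells of a type cannot be told apart from less RNA per cell.

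The promoter stretches of 4 genes are shown first because they hold the motif of HSF1 in genes that rose (Hspe1, Hspa1b), fell (Hspb1) or did not pass (Dnajb6). The sequences are RefSeq's (GRCm38.p6), the 250 bases before an annotated start, written 5′ to 3′ on the gene's strand, with each match to the heat shock element in capitals. The element was searched, on both strands, as a pair of inverted units, GAANNTTC or TTCNNGAA, and as 3 alternating units, GAANNTTCNNGAA or TTCNNGAANNTTC, which contain the pair. Hspe1 lies at chr1:55087898-55088147 on the plus strand, Hspa1b at chr17:34959239-34959488 on the minus strand, Hspb1 at chr5:135887669-135887918 and Dnajb6 at chr5:29735648-29735897, both on the plus strand.
Hspe1: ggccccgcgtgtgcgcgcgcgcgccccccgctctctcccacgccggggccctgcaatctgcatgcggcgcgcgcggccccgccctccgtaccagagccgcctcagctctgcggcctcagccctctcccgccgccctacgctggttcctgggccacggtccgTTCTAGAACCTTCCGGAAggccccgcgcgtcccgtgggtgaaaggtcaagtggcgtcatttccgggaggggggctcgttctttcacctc
Hspa1b: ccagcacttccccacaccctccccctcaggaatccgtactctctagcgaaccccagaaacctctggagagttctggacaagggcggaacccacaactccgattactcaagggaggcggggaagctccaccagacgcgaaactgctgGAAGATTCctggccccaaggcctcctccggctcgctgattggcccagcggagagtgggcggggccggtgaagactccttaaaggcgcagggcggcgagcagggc
Hspb1: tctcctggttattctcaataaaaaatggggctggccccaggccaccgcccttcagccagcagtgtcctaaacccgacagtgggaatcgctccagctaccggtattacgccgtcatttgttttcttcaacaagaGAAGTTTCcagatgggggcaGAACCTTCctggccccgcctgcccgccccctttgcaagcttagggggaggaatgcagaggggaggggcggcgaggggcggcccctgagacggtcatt
Dnajb6: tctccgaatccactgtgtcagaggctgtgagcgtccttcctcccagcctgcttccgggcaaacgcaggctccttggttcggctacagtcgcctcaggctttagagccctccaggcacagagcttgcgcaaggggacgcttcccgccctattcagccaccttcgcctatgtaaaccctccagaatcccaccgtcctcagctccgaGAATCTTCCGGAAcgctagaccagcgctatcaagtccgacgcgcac
The capitals in Hspe1 are 3 overlapping pairs in a run of 18 bases, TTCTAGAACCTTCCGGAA, at chr1:55088059-55088076, and start 89 bases before the Hspe1 start. Hspd1 is the neighbouring gene on the other strand, and 1 of its 2 listed windows holds the same 18 bases, 144 bases before the Hspd1 start. Hspa1b holds 1 pair 104 bases before its start, Hspb1 holds 2, 117 and 97 bases before, and Dnajb6 holds a run of 3 units that starts 46 bases before. Of the other members that passed, Hspb8 holds a pair just after its start, and the windows of Dnaja3 and Dnajc17 hold no match. Hspa9 had no entry among the promoters used and was not searched. Among the 56 members with an entry, 17 (30.4%) held the pair in a window of 300 bases around a start and 4 (7.14%) held 3 units. These 4 include both Hspe1 and Hspd1, which share 1 run. Over all 27025 genes of that table the shares were 17.0% and 0.662%. A match is a description of the letters and does not show that a factor binds there.

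Against PBS, L-proline libraries had more RNA for the mitochondrial chaperones Hspe1, Hspa9 and Dnaja3 and for Hspa1b and Hspb8, and less for Hspb1 and Dnajc17. The other tested chaperones, among them the abundant cytosolic HSP90, HSP70 and CCT genes, did not pass. A mean of at least 1 FPKM was required for the test, which 61 of the 70 members met. Of these 5 rose and 2 fell (limma on log2(FPKM + 1), Benjamini-Hochberg over all genes, adjusted p under 0.05), and 54 did not pass. In all, 7 of 61 members passed, or 11.5%, while 19.6% of the 10500 genes tested passed. By direction, 8.20% of members rose against 7.50% of all genes, and 3.28% fell against 12.1%. The median log2 fold change was 0.0015 over the members and -0.06 over all genes tested. Without PBS 1, without PBS 3 or without L-proline 2 the number that rose was 3. Without L-proline 3 it was 4, where Hspa1b and Hspb8 were lost and Dnaja2 passed. The number that fell was 1 without PBS 1, PBS 2, PBS 3 or L-proline 3, and 4 without L-proline 1. Those 4 were Hspb1, Hspa4l, Dnajc21 and Hspa13, while Dnajc17 was lost there.

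The 3 members with the smallest adjusted p all encode mitochondrial chaperones. Hspe1 encodes HSP10, the lid of the mitochondrial chaperonin, and stood at 169.5, 172 and 174 FPKM in PBS 1, 2 and 3. In L-proline 1, 2 and 3 it stood at 257, 273 and 248 FPKM. The lowest L-proline library lay above the highest PBS library, and the log2 fold change was 0.59 ± 0.06 (SE, limma, adjusted p = 0.000971). Hspa9 encodes mortalin, the HSP70 that pulls proteins into the mitochondrial matrix and folds them there. It was 150.1, 159.7 and 147 FPKM in the PBS libraries and 239, 216 and 231 in the L-proline libraries. The groups did not overlap and the log2 fold change was 0.58 ± 0.07 (adjusted p = 0.00141). Dnaja3, the J-domain partner of mortalin in the matrix, was 18.7, 17.9 and 18.5 FPKM in PBS and 25.4, 25.8 and 26.4 in L-proline. Its log2 fold change was 0.47 ± 0.07 (adjusted p = 0.00287), again without overlap. These 3 genes passed under all 16 alternative settings tried.

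Hspd1, which encodes the HSP60 barrel that the HSP10 lid closes, did not pass. It was 117, 130.0 and 119 FPKM in PBS and 147, 143 and 116 in L-proline. L-proline 3 lay below every PBS library, so the groups overlapped, and the log2 fold change was 0.14 ± 0.10 with a 95% interval of -0.08 to 0.37 (adjusted p = 0.337). Hspd1 passed under 0 of 16 alternatives and came nearest without L-proline 3 (log2 fold change 0.25, limma adjusted p = 0.0632). The ratio of Hspe1 to Hspd1 within a library was 1.45, 1.32 and 1.47 in PBS 1, 2 and 3 and 1.75, 1.91 and 2.13 in L-proline 1, 2 and 3. All 3 L-proline ratios lay above all PBS ratios, with an exact two-sided permutation p of 0.1, the smallest that 3 against 3 libraries can give. The ratio was among 4 compared after the values were seen, and over these the adjusted p was 0.133. These are the neighbouring genes whose windows share the run of heat shock units shown above.

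**Figure D1:**
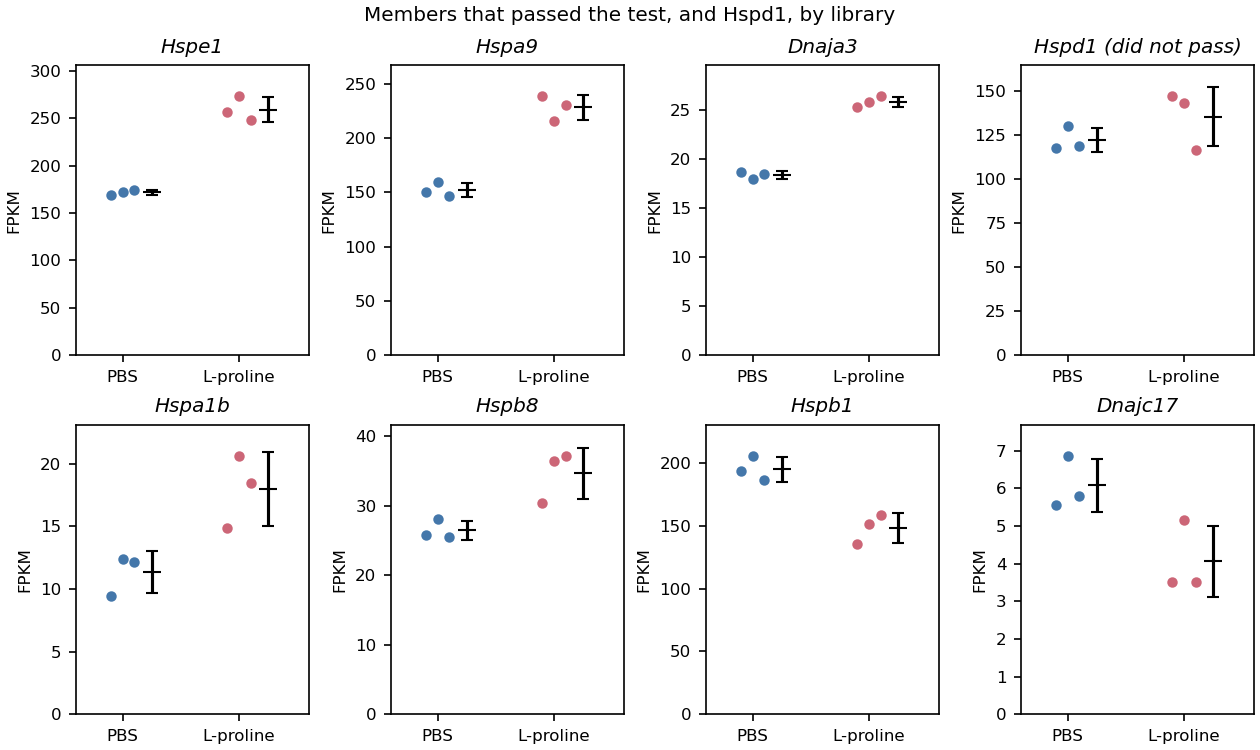
FPKM in each library (points) with the group mean and SD beside them (bars, n = 3) for the 7 members that passed and for Hspd1, which did not. The y axes start at 0 and differ in scale; the L-proline points of Hspe1, Hspa9 and Dnaja3 sit well above the PBS points, while those of Hspd1 overlap them.

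Other genes picked here for protein import, folding and proteolysis in the mitochondrial matrix were mostly higher in L-proline by small amounts that did not pass. With the members above and the further genes named here they make a group of 14, put together after the values were seen, so its counts are a description. In it 4 rose (28.6%, against 7.50% of all genes tested), 1 fell (7.14%, against 12.1%) and 9 did not pass. The log2 fold change was above 0 in 13 and below 0 in 1, with a median of 0.14, against -0.06 over all genes tested. Tomm34, given below, and Tomm70a, both named for the outer membrane of mitochondria, were not put in the group. The mitochondrial members Dnajc11 and Dnajc30 were left out as well, and the group was not drawn from a full list of mitochondrial genes. The log2 fold changes of Tomm34, Tomm70a, Dnajc11 and Dnajc30 were below 0 (-0.54, -0.04, -0.02 and -0.22), so these counts depend on the choice of genes. Lonp1, the ATP-driven protease of the matrix, was the fourth that rose, from 50.9 ± 2.32 to 62.6 ± 4.19 FPKM (mean ± SD, n = 3, log2 fold change 0.29 ± 0.08, adjusted p = 0.0300). It was lost without PBS 1 (0.122), PBS 3 (0.1303), L-proline 2 (0.0798) or L-proline 3 (0.0701). Trap1, the mitochondrial HSP90, fell from 47.5 ± 1.14 to 37.9 ± 2.81 FPKM (-0.32 ± 0.07, adjusted p = 0.0223), and was lost without PBS 1 (0.0846), PBS 2 (0.0712) or PBS 3 (0.0831) and with median-of-ratios scaling (0.0642). Grpel1, the nucleotide exchange factor of mortalin, was 16.3 ± 1.67 and 16.9 ± 1.74 FPKM and did not pass (adjusted p = 0.779). The other 8 that did not pass were Hspd1, Dnajc15, Dnajc19, Grpel2, Hscb, Dnlz, Clpx and Clpp.

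Among HSP70 genes, 2 of 7 tested members rose, Hspa9 and Hspa1b, and 0 fell. Hspa1b, a heat-inducible HSP70 of the cytosol, was 9.42, 12.4 and 12.2 FPKM in PBS and 14.8, 20.7 and 18.4 in L-proline. The groups did not overlap, and the log2 fold change was 0.62 ± 0.14 (adjusted p = 0.0201). It missed the threshold without PBS 1 (adjusted p = 0.0693), PBS 3 (0.0533), L-proline 2 (0.0635) or L-proline 3 (0.0539). Its neighbour Hspa1a, a near-identical copy, was listed with 13, 26 and 25 fragments in PBS and 19, 42 and 22 in L-proline, while Hspa1b had 993 to 2031 per library. The promoter windows of the pair are alike at 296 of 300 bases, and the counting of fragments that match both copies is not stated in any source used here, so the split between them is uncertain. Hspa8, the constitutive HSP70 that folds new proteins, was the most abundant HSP70 gene at 535, 587 and 538 FPKM in PBS and 486, 583 and 499.6 in L-proline. The groups overlapped and the log2 fold change of -0.09 had a 95% interval of -0.28 to 0.11 (adjusted p = 0.498). The other 4 tested members, Hspa2, Hspa12a, Hspa13 and Hspa14, had log2 fold changes from -0.37 to 0.01. Hspa13 lay at the lower end, without overlap of the groups (adjusted p = 0.0834).

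HSP90 and HSP110 genes did not pass. Hsp90ab1, the constitutive cytosolic HSP90, was the most abundant of all 70 members and made up 24.3 to 28.2% of their summed FPKM. It was 1103, 1261 and 1143 FPKM in PBS and 1172, 1321 and 1336 in L-proline, with a log2 fold change of 0.13 ± 0.08 and an interval of -0.06 to 0.31 (adjusted p = 0.298). The inducible form Hsp90aa1 was 241, 214 and 234 FPKM in PBS and 224, 220.1 and 124 in L-proline. L-proline 3 alone was low, and the log2 fold change of -0.33 ± 0.21 did not pass (adjusted p = 0.294). Of the HSP110 genes, Hspa4 was 75.8, 80.7 and 79.2 FPKM in PBS and 88.7, 89.6 and 72.3 in L-proline (adjusted p = 0.565). Hsph1, which holds 3 heat shock units after its start, was 16.2 ± 1.21 and 16.9 ± 2.35 FPKM (adjusted p = 0.761). Hspa4l had the largest negative log2 fold change of the members, -0.60 ± 0.25, but its groups overlapped and it did not pass (adjusted p = 0.132).

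The small heat shock proteins went both ways, 1 up and 1 down among 4 tested. Hspb1, or HSP27, which binds unfolded clients and actin filaments, was 194, 206 and 187 FPKM in PBS and 135, 151 and 159 in L-proline. All L-proline values lay below all PBS values, a log2 fold change of -0.40 ± 0.08 (adjusted p = 0.0115), and it passed under all 16 alternatives. Hspb8, which works with the co-chaperone Bag3 to send damaged proteins to autophagy, was 25.8, 28.0 and 25.5 FPKM in PBS and 30.4, 36.3 and 37.2 in L-proline. It rose by 0.37 ± 0.09 on the log2 scale (adjusted p = 0.0276), and missed the threshold without PBS 1 (0.104), PBS 3 (0.117), L-proline 2 (0.0833) or L-proline 3 (0.0695). Bag3 itself was 39.4, 42.5 and 40.7 FPKM in PBS and 37.7, 45.3 and 44.2 in L-proline (adjusted p = 0.718). The ratio of Hspb8 to Hspb1 went from 0.135 ± 0.00201 to 0.233 ± 0.00795 (n = 3 each, exact permutation p = 0.1, the smallest possible, and adjusted p = 0.133 over the 4 ratios). Since Hspb8 lay higher and Hspb1 lower in every L-proline library, this ratio had to separate, and its p adds no support to either call. Hspb2, a muscle form, was 16.7, 15.8 and 16.2 FPKM in PBS and 17.3, 18.4 and 17.8 in L-proline (adjusted p = 0.215), and Hspb6 did not pass either (0.909). Hspb7, a heart and muscle form, had 0 to 13 fragments per library; the 0 of L-proline 2 allows up to 0.0310 FPKM, which is what 3 fragments would give.

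J-domain genes were the most numerous class. Of 35 tested, 1 rose (Dnaja3), 1 fell (Dnajc17) and 33 did not pass. Dnajc17, whose product carries an RNA recognition motif, was 5.56, 6.88 and 5.81 FPKM in PBS and 3.51, 5.16 and 3.51 in L-proline. The highest L-proline library lay just under the lowest PBS library, and the log2 fold change of -0.50 ± 0.14 passed narrowly (adjusted p = 0.0436). It passed under 7 of 16 alternatives, and was lost without PBS 1 (0.0878), PBS 2 (0.115), PBS 3 (0.115), L-proline 1 (0.0646) or L-proline 3 (0.1105). Dnaja2, a cytosolic partner of Hspa8, was 92.4, 99.3 and 94.5 FPKM in PBS and 116, 126 and 105 in L-proline. Its groups did not overlap and it missed the threshold (log2 fold change 0.27 ± 0.08, adjusted p = 0.0509), which it passed under 6 of 16 alternatives.

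Dnajb6, an inhibitor of protein aggregation with the promoter shown above, was 35.2, 35.9 and 35.6 FPKM in PBS and 38.9, 39.5 and 38.1 in L-proline. These groups did not overlap, yet the log2 fold change was 0.12 ± 0.06 and did not pass (adjusted p = 0.192). The 8 DNAJB genes had log2 fold changes of -0.18 to 0.14, including the stress-inducible Dnajb1 at 28.5 ± 1.16 and 27.3 ± 4.13 FPKM (adjusted p = 0.697). Dnajc10, a disulfide reductase of the endoplasmic reticulum, was the most abundant DNAJC gene at 73.5, 67.5 and 73.2 FPKM in PBS and 78.5, 69.3 and 52.5 in L-proline (adjusted p = 0.579). The 22 DNAJC genes that did not pass had mean levels from 1.75 to 69.1 FPKM, log2 fold changes from -0.40 to 0.21 and adjusted p from 0.0633 to 0.999. Hspbp1, an exchange factor for HSP70 that only shares letters with the small heat shock proteins, was 8.70, 10.4 and 11.3 FPKM in PBS and 7.44, 11.2 and 9.21 in L-proline (adjusted p = 0.590).

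**Figure D2:**
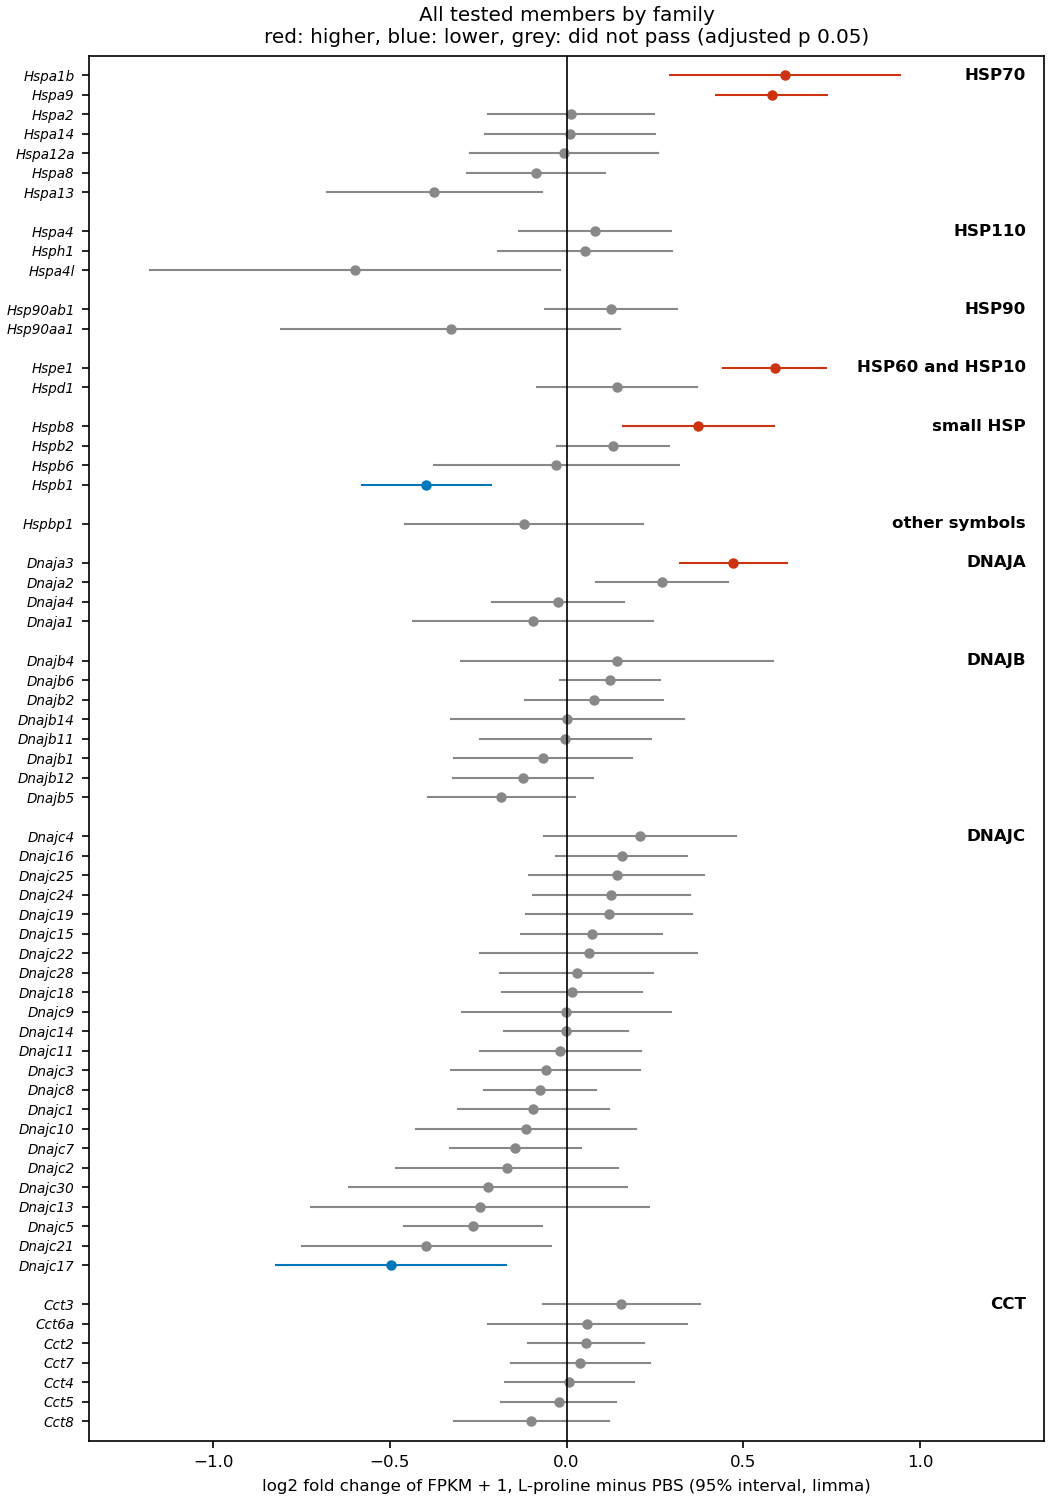
Log2 fold change of FPKM + 1, L-proline minus PBS, with its 95% interval (lines) for the 61 tested members, ordered by family. The 5 red genes rose and the 2 blue genes fell at an adjusted p under 0.05; most grey intervals are short and span 0.

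For most members that did not pass, the interval between the groups was narrow. It reflects the scatter of these 6 libraries only and sets no bound for other animals. The matching share over all genes that did not pass was not counted. In 48 of these 54 genes the 95% interval of the log2 fold change lay inside 0.585 either way, which is 1.5-fold of FPKM + 1 and allows a larger fold of FPKM itself in members of low level. The 6 others were Hspa4l, Hspa13, Hsp90aa1, Dnajc13, Dnajc21 and Dnajc30, and all 6 intervals reached further on the side of lower values in L-proline. Fragments were simulated for 10500 genes with a dispersion of 0.01, a value that was set and not estimated from these libraries. There 20% of 50 genes changed 1.25-fold and 88% of 50 changed 1.5-fold were found, so smaller changes of single members can have been missed. Far fewer genes were changed there than the 2056 that passed in these libraries, and no differences with gene length were simulated. The rates in these libraries may therefore differ.

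No gene of the CCT ring, which folds actin and tubulin, passed the test. The ring has 8 kinds of subunit, 7 from members and the other from Tcp1, whose symbol the choice of genes leaves out. Cct2, the most abundant, was 217, 240.5 and 218 FPKM in PBS and 224, 246 and 230.4 in L-proline, with overlapping groups (log2 fold change 0.05, interval -0.11 to 0.22, adjusted p = 0.614). Of the 7 tested Cct genes 0 passed with limma, and 0 had an unadjusted p under 0.05. Their log2 fold changes lay between -0.10 and 0.16. Tcp1 was 157, 163 and 159 FPKM in PBS and 144, 154 and 135 in L-proline, without overlap, and did not pass (-0.14 ± 0.07, adjusted p = 0.184). Levels per length differed 1.96-fold in PBS between the highest subunit gene, Cct2, and the lowest, Cct6a. In L-proline the range was 2.04-fold, from Cct2 to Cct8, whose mean differed from that of Cct6a by less than the spread of either. Cct6b, known from testis, had 19 to 34 fragments per library and was not tested.

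**Figure D3:**
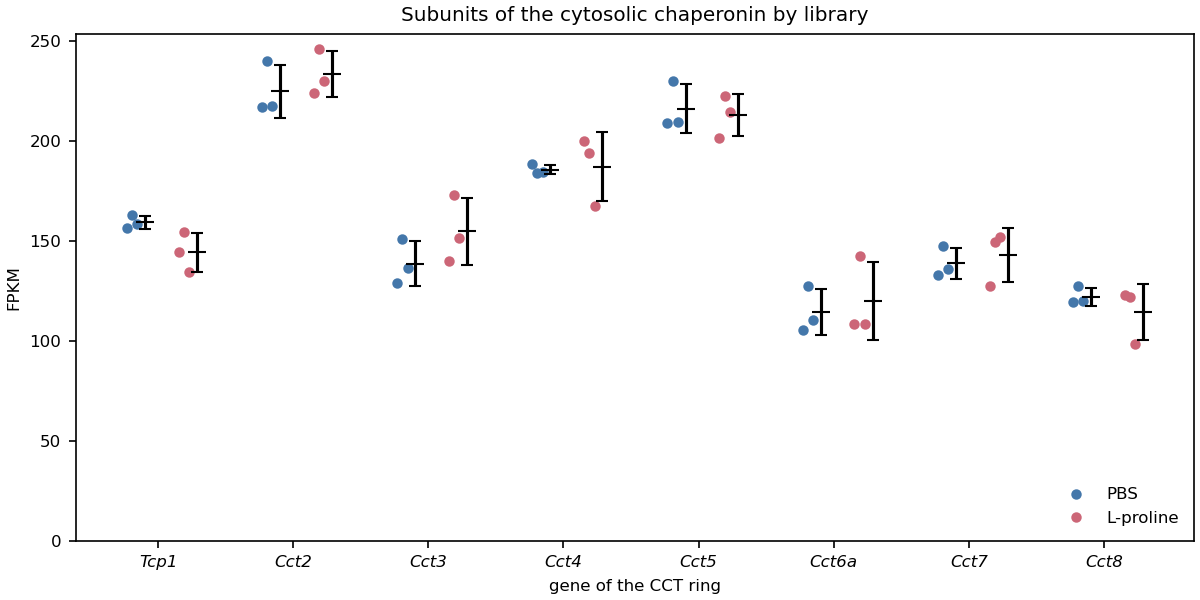
FPKM of the 8 subunit genes of the cytosolic chaperonin in each library (points), with the group mean and SD (bars, n = 3); the y axis starts at 0. PBS and L-proline points overlap for each gene except Tcp1, whose L-proline points lie just below the PBS points.

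Libraries differed among themselves with gene length. L-proline 3 was the lowest of its group for long members: over the 13 tested members of at least 5000 bases its median deviation from the group mean was -0.23 on the log2 scale, against 0.16 in L-proline 1 and 0.01 in L-proline 2. Over the 48 shorter members the same medians were -0.02, -0.08 and 0.10. In the PBS group the long members deviated by -0.11 in PBS 2, 0.09 in PBS 1 and 0.02 in PBS 3. Over all 10500 genes tested, every library's deviation from its group mean went with length. The Spearman correlation was 0.36, -0.45 and 0.28 in PBS 1, 2 and 3 and 0.40, -0.27 and -0.27 in L-proline 1, 2 and 3. Hspa4l, with a recovered length of 10022 bases, was 15.2, 10.9 and 15.8 FPKM in PBS and 13.3, 8.48 and 5.87 in L-proline. The low Hsp90aa1 value of L-proline 3 came in a gene of 2850 bases. The part of this pattern in the fold changes of long members was not tested. Hspe1 (768 bases), Hspa9 (3043), Dnaja3 (2648) and Hspb1 (903) are all shorter than the bound used here. Shorter members also deviated by library, as given above, and the part of length in their fold changes was not tested either.

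**Figure D4:**
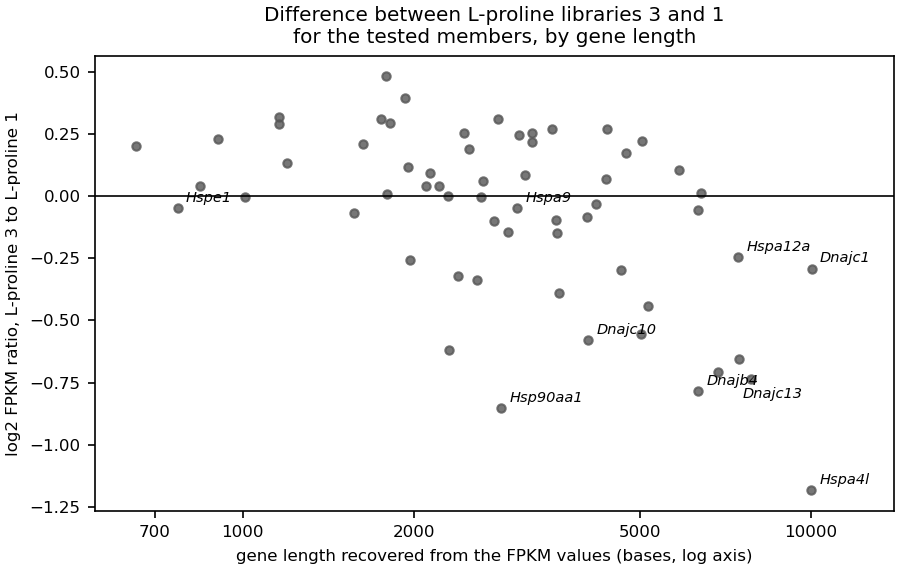
Log2 ratio of FPKM between L-proline 3 and L-proline 1 (y axis) against the gene length recovered from the FPKM values (bases, log axis) for the 61 tested members (points). Hspa4l lies lowest at -1.18, while Hspe1 and Hspa9 lie near 0.

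Of the 70 members, 9 lay under 1 FPKM and were not tested. They were Cct6b, Dnajc6, Dnajc12, Dnajc27, Hspa1a, Hspa1l, Hspa12b, Hspb7 and Hspbap1, from a mean of 0.0349 FPKM for Dnajc6 to 0.986 for Hspbap1. Of the tested members, 15 had means of at least 100 FPKM, 28 from 10 to under 100 and 18 from 1 to under 10. The 70 genes together made up 1.17 to 1.20% of the summed FPKM in PBS libraries and 1.16 to 1.25% in L-proline libraries. Counted without a test, the groups did not overlap for 9 members higher and 5 lower in L-proline, 23.0% of 61. Over all genes tested the share was 40.1%, with 16.0% higher and 24.0% lower.

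Co-chaperones and other genes of the pathway, a list of 52 that were all listed and tested, held 3 that rose and 4 that fell. These are 5.77% and 7.69%, against 7.50% and 12.1% of all genes tested, with a median log2 fold change of -0.02. The groups did not overlap for 22 of them (42.3%, against 40.1%). Serpinh1, or HSP47, the collagen chaperone of the endoplasmic reticulum, was 476, 543 and 508 FPKM in PBS and 647, 716 and 774 in L-proline (0.48 ± 0.09, adjusted p = 0.00738). The collagen genes Col1a1, Col1a2 and Col3a1, counted above among fibroblast markers, rose as well, Col3a1 from 1226 ± 18.5 to 1824 ± 150.1 FPKM. Of the other listed fibroblast markers, Pdgfra fell (log2 fold change -0.34, limma adjusted p = 0.0215), and Dcn, Postn and Fn1 did not pass. The part of the fibroblast markers in the Serpinh1 value was not tested. Pfdn4, a prefoldin subunit that hands chains to CCT, was 26.8, 28.0 and 29.4 FPKM in PBS and 34.0, 35.7 and 35.8 in L-proline (0.32 ± 0.07, adjusted p = 0.0165), and was lost without PBS 1 (0.0837), PBS 2 (0.0535) or PBS 3 (0.0544).

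Tomm34, a cytosolic co-chaperone of mitochondrial precursors, was 12.7, 12.6 and 12.3 FPKM in PBS and 8.05, 8.45 and 8.39 in L-proline. It fell by 0.54 ± 0.07 on the log2 scale (adjusted p = 0.00213). Fkbp5, a partner of HSP90 on the glucocorticoid receptor, was 9.27, 10.5 and 9.77 FPKM in PBS and 5.75, 6.64 and 6.71 in L-proline (-0.56 ± 0.09, adjusted p = 0.00515). Trap1, given above, and Nudc, a co-chaperone of HSP90 tied to dynein, were the others that fell, Nudc from 70.9 ± 5.92 to 54.7 ± 5.48 FPKM (adjusted p = 0.0300). Nudc was lost without PBS 1 (0.0535), PBS 2 (0.0877), PBS 3 (0.102) or L-proline 3 (0.0713) and with median-of-ratios scaling (0.0601). Hsf1, the master regulator of the heat shock response, was 23.1, 24.8 and 24.4 FPKM in PBS and 20.04, 22.6 and 22.3 in L-proline, just without overlap (-0.15 ± 0.08, adjusted p = 0.199). The number that fell in this list was 2 without PBS 1, PBS 2 or PBS 3, and the number that rose was 1 without PBS 1 or PBS 3.

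Classical heat shock response genes, 16 of which were grouped after their values were seen, held calls in both directions. Of 15 tested, 2 rose (Hspa1b and Hspe1), 1 fell (Hspb1) and 12 did not pass. These are 13.3% and 6.67%, against 7.50% and 12.1% of all genes tested, and the median log2 fold change was -0.07, against -0.06. Genes that passed but were not put in this group include Serpinh1 and Hspb8, which rose, and Trap1, which fell. The counts and the median therefore depend on the choice of genes. Those that did not pass were Hspd1, Hsp90aa1, Hsp90ab1, Hspa8, Hspa4l, Hsph1, Dnaja1, Dnajb1, Dnajb4, Bag3, Chordc1 and Stip1, and Hspa1a was too low to test. Both Hspe1, which rose, and Hspb1, which fell, hold the heat shock motif in the sequences printed above. The part of HSF1 in these changes was not tested.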

How the data were processed

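Polyadenylated RNA from 6 libraries was sequenced as paired ends on a NovaSeq instrument, per the labels' protocols. The authors deposited 1 table of FPKM values for 14408 gene symbols, per the file headers. Per the submitters' processing notes, HISAT2 and HTSeq 0.13.5 were used with the build GRCm39, without stated roles. Groups and replicate numbers came from the sample titles. Library totals were solved from 13 mitochondrially encoded genes, and all 14408 genes then gave whole fragments within a tolerance of 0.01. A gene of 1 kb with 0 fragments could lie at up to 0.0800 to 0.0857 FPKM (3 fragments, counting error only). L-proline was compared with PBS by limma 3.58.1 in R 4.3.3 on log2(FPKM + 1) for genes with a mean of at least 1 FPKM (two-sided, moderated by empirical Bayes with a trend). This scale understates the change of genes with low values. Ratios used exact permutation tests (scipy 1.17.1). The fit was tested on simulated data.

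The members and lists were chosen with earlier results of these data known. Genes were named if they passed, if they were the most abundant of their family that did not pass, or, without a call, if the groups did not overlap at a log2 fold change of at least 0.5. The 4 co-chaperones with the smallest p, Hsf1, Tcp1 and Bag3 were added. Any other gene named was chosen after its values were seen. No 2 libraries of a group were alike within counting noise (chi-square per degree of freedom 7.81 to 77.9). Promoters are RefSeq's for GRCm38.p6, not the build of the notes, and protein sequences were not used here. The alternatives are a pseudocount of 0.1, other filters (none, or 5 FPKM), 4 other scalings, a robust variance model, voom on the recovered fragments, a replicate block and each library left out.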

Additional observations from a re-analysis of the deposited data

How the results depend on the processing

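Hspe1, Hspa9, Dnaja3 and Hspb1, and the co-chaperones Tomm34, Fkbp5 and Serpinh1, kept their direction and passed under all 16 alternatives. Hspa1b and Hspb8 passed under 12 and Dnajc17 under 7. Members that rose numbered 3 to 6 and those that fell 1 to 4 when a library was left out. Those that fell numbered 1 with no filter, with median-of-ratios scaling, with quantile normalization and with voom, where Dnajc17 was lost (adjusted p = 0.0731, 0.0548, 0.0969 and 0.0631). In the list of co-chaperones, 4 fell, but 2 did with median-of-ratios scaling and 9 with equal sums of FPKM; with a library left out 2 to 5 fell and 1 to 3 rose. Over all genes tested, leaving out a library gave 366 to 965 higher and 508 to 1805 lower, where the full set gave 788 and 1268. The counts were 392 and 584 without PBS 1 and 366 and 508 without PBS 3, and 843 were lower without PBS 2; the cause was not tested. By scaling, the split was 993 higher and 919 lower with median-of-ratios, 1077 and 1019 with quantile normalization and 676 and 1694 with equal sums, while 803 and 1478 passed with mitochondrial and the 20 most abundant genes left out of the sum. Log2 fold changes of genes that did not pass changed sign for Cct2 (-0.0401) and Hsp90ab1 (-0.0318) with quantile normalization, and, with a library left out, for Dnajc10 (-0.239 to 0.0468, positive without L-proline 3), Hspbp1 (-0.251 to 0.0146, positive without L-proline 1) and Bag3 (-0.000279 to 0.128, negative without L-proline 2).

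The labels do not say whether the replicate numbers pair the libraries. Deviations of same-numbered libraries correlated at 0.651, 0.416 and -0.348 for numbers 1, 2 and 3, and PBS 3 correlated best with L-proline 1. These correlations rest on 3 libraries a group, which also differ with gene length, so they cannot decide the pairing. With the replicate block 6 members rose, 2 fell and Dnaja2 passed (adjusted p = 0.0343); 908 genes were higher and 1475 lower, and 5 co-chaperones fell. With 3 libraries a group, changes under 1.5-fold can have been missed, although Hspa9, Dnaja3, Dnajc17, Hspb1 and Hspb8 passed below it on the scale of FPKM + 1.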
